A study of Mus musculus with 6 samples.

Results

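The C-type lectin receptors of myeloid cells were taken from a fixed list of 8 gene symbols, Clec4d, Clec4e, Clec4n, Clec7a, Clec12a, Cd209a, Mgl2 and Mrc1. Of these, 7 matched a row among the 20394 genes of the deposited matrix, and Clec7a was not analysed here. The cells were CD45+ leukocytes sorted from the synovium of C57BL/6 mice with antigen-induced arthritis, for which the labels give no age. The mice had been immunised with methylated bovine serum albumin in complete Freund's adjuvant and received the same antigen into the knee on day 21. From that day they were injected intraperitoneally with PBS as the vehicle (2 samples) or with 300 µg of the PEGylated peptide PEPITEM (4 samples), so that immunisation and challenge were common to every sample. The model is an arthritis of 1 joint in a host whose haematopoietic cells are intact, and whether a sample held 1 mouse or several is not stated in the labels.

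RNA was read by droplet-based 3′ single-cell sequencing, which counts each captured transcript molecule through a unique molecular identifier (UMI). The matrix held 32953 cells in 6 libraries of 2919 to 9345 cells and 47273569 to 123367661 UMIs, with a median of 11376 UMIs per cell. Barcodes carry a library number from 1 to 6, and nothing in the labels or files ties a number to a mouse or a treatment. PBS and PEPITEM were therefore not compared, and no p-value is given. Each level is the number of UMIs of a gene per 1000000 UMIs (CPM), pooled over the cells of a class, followed by its exact Poisson 95% interval, which covers counting error only, or by the lowest and highest of the 6 libraries. The spread between libraries holds both treatments. In all, 138 barcode sequences occurred in more than 1 library.

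C-type lectin receptors bind sugars and lipids of microbes and of damaged cells. Clec4d (also called MCL), Clec4e (Mincle) and Clec4n (Dectin-2) pass their signal through the adaptor chain encoded by Fcer1g to the kinase Syk and the scaffold protein Card9, a route known for the response to the mycobacterial glycolipids of complete Freund's adjuvant. Clec12a carries an inhibitory motif that recruits phosphatases, whereas Cd209a (a relative of human DC-SIGN), Mgl2 (CD301b, which binds galactose-type sugars) and Mrc1 (CD206, the mannose receptor) are best known as endocytic receptors of dendritic cells and macrophages.

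Cells were clustered without the members or any other C-type lectin gene, and clusters were named from marker genes that include none of them. This gave 22 named classes with 31516 cells and left 1437 cells unnamed. Each name is to be read as "-like". All 7 measured members had their highest level in a neutrophil, monocyte-macrophage or dendritic class. The list was chosen as receptors of myeloid cells with earlier results of these data known, so this count describes the choice. The share of all genes that are highest in these classes was not counted. The neutrophil classes held 34.2% of all UMIs but 49.3% of the Clec4d, 48.8% of the Clec4e and 48.5% of the Clec12a UMIs. The monocyte and macrophage classes, with 36.4% of all UMIs, held 92.5% of the Mrc1 and 75.5% of the Clec4n UMIs. Conventional dendritic classes, with 2.57% of all UMIs, held 37.6% of the Cd209a and 12.8% of the Mgl2 UMIs, and a further 33.3% of each lay in unnamed cells.

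**Figure D1:**
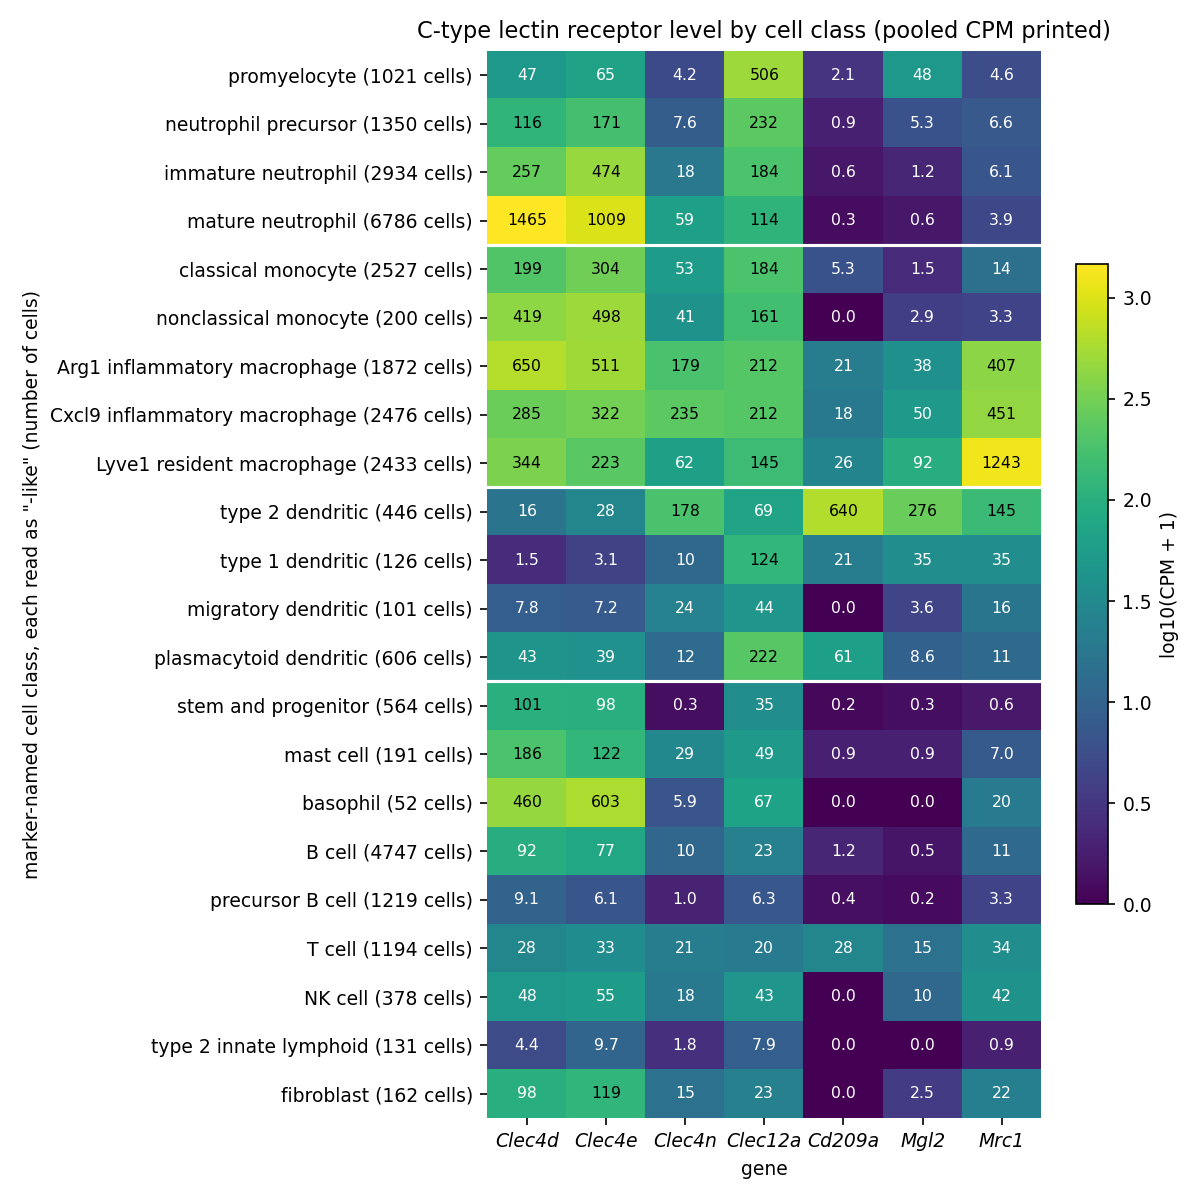
Pooled level of each measured receptor gene (columns) in each of the 22 named cell classes (rows, with the number of cells), with the CPM printed in each field and log10(CPM + 1) as the colour. Clec4d and Clec4e were highest in mature neutrophil-like cells (1465 and 1009 CPM), Mrc1 in Lyve1 resident macrophage-like cells (1243 CPM) and Cd209a in type 2 dendritic-like cells (640 CPM).

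Clec4d and Clec4e, which encode the partner receptors MCL and Mincle, lie next to each other on chromosome 6 of GRCm38. Clec4d spans 123262107 to 123275268 on the forward strand and Clec4e spans 123281789 to 123289871 on the reverse strand, with 6520 bases between them. Clec4n lies at 123229843 to 123247024, 15082 bases before Clec4d. The 250 bases before the RefSeq start of each gene of the pair (GRCm38.p6, chr6:123261857-123262106 on the forward strand and chr6:123289872-123290121 on the reverse strand, each 5′ to 3′) are shown because both genes were highest in the same class; capitals mark GAGGAA on either strand (TTCCTC on the other), the core letters bound by the myeloid factor PU.1.
Clec4d: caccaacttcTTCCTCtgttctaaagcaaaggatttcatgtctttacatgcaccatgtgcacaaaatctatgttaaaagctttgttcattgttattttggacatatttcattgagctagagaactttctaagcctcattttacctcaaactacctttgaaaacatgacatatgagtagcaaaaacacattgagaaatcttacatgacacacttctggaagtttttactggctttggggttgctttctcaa
Clec4e: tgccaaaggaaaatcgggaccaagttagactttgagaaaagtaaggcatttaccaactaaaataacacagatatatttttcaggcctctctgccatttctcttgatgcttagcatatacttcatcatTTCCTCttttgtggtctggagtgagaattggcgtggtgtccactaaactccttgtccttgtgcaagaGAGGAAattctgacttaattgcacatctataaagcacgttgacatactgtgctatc
Clec4d held 1 such match, 240 bases before its start, and Clec4e held 2, at 123 and 56 bases. Over the 32851 promoter windows of the table, 23.3% held at least 1 match. The C/EBP-type letters TTNNGNAA, searched on both strands, matched 3 times before Clec4d and 2 times before Clec4e, and were found in 36.8% of all windows. These matches are letters only and were not tested for binding.

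In mature neutrophil-like cells, the level of Clec4d was 1465 CPM (interval 1453 to 1476), and the 6 libraries ran from 1250 through a median of 1644 to 2039 CPM. A UMI of Clec4d was found in 96.3% of these cells (Wilson 95% interval 95.8 to 96.7%), and in 90.5% after each cell was thinned to 3000 UMIs. The lowest of these libraries lay above the highest library of every other class. The next class was the Arg1 inflammatory macrophage-like cells with 650.0 CPM (libraries 555 to 705), followed by basophil-like cells with 460 CPM from only 52 cells. In B cells, taken as a class that should lack the gene, the level was 91.9 CPM and 7.79% of cells held a UMI, at a median depth of 5432 UMIs against 5269 in mature neutrophil-like cells.

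Clec4e was highest in the same class. Its level in mature neutrophil-like cells was 1009 CPM (interval 999 to 1018), with libraries at 843, a median of 1113 and 1460 CPM, and 92.2% of cells held a UMI. Basophil-like cells came next with 603 CPM, but their libraries spread from 90.5 to 1829 CPM. Arg1 inflammatory macrophage-like cells stood at 511 CPM (339 to 595), nonclassical monocyte-like cells at 498 CPM (385 to 755) and immature neutrophil-like cells at 474 CPM (381 to 753). The library ranges of these neighbours overlap, so their order is not settled. UMIs of 10 neutrophil genes (listed below) made up 28921 CPM in the nonclassical monocyte-like and 24906 CPM in the basophil-like class. In nonclassical monocyte-like cells Clec4e was at 304 CPM in the 74 cells with none of these UMIs and 584 CPM in the 85 cells with 10 or more, and Clec4d at 78.8 and 590.2 CPM. In B cells the level was 77.5 CPM, with a UMI in 8.49% of cells.

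The neutrophil lineage was represented by promyelocyte, neutrophil precursor, immature and mature neutrophil-like classes, in the order of maturation known for these markers. Median depth fell along this order, at 34505, 28560, 13544.5 and 5269 UMIs per cell. Each CPM is a share of the UMIs of a class, so a change in CPM need not be a change in UMIs per cell. Clec4d stood at 47.2, 116, 257 and 1465 CPM in this order, and Clec4e at 65.3, 171, 474 and 1009 CPM. Both were higher in each next class in 6 of 6 libraries. Clec12a, which encodes the inhibitory receptor, ran the other way, from 506 CPM in promyelocyte-like cells to 232, 184 and 114 CPM, and was lower in each next class in 6 of 6 libraries. Clec4n stood at 4.19, 7.63, 17.8 and 59.5 CPM and was higher at each step in 5 of 6 libraries. Mgl2 had its only level above 10 CPM within this lineage in promyelocyte-like cells, at 48.1 CPM (libraries 38.9 to 50.7), with a UMI in 53.6% of cells. It stood at 5.25 CPM in neutrophil precursor-like cells, lower in 6 of 6 libraries. The promyelocyte-like cells were deeper, with a median of 34505 UMIs, and after thinning 12.5% of them held a UMI of Mgl2 against 1.20% of the precursors.

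**Figure D2:**
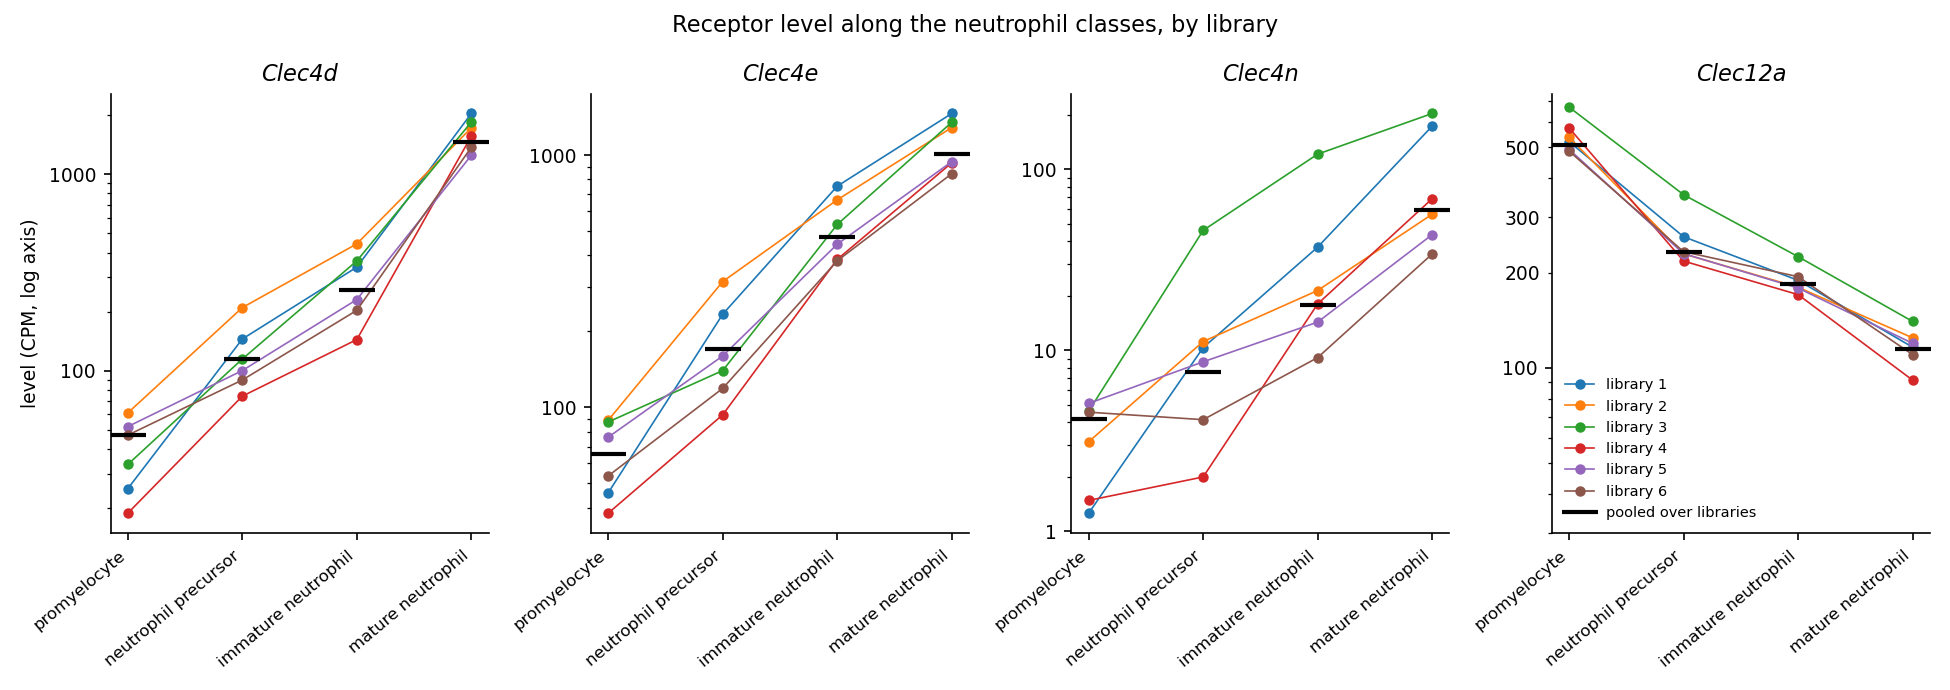
Level of 4 receptor genes (CPM, log axis) in the 4 neutrophil classes, with 1 line per library and a black bar for the pooled level. Every Clec4d and Clec4e line ascends from promyelocyte-like to mature neutrophil-like cells, every Clec12a line descends, and 1 of the 6 Clec4n lines dips between the first 2 classes.

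Between mature and immature neutrophil-like cells, a gene was called when its pooled levels differed by at least 2-fold and the ranges of the 6 libraries did not overlap. By this rule 2 of 7 members were called, both higher in mature cells, against 12.7% of the 17888 genes with a UMI in either direction with 4.38% higher in mature cells and 8.27% higher in immature cells. Among genes above 5 CPM the share called in either direction was 24.8%. Clec4d was 5.69-fold higher and Clec4e 2.13-fold higher, each in 6 of 6 libraries. These folds compare shares of UMIs and not UMIs per cell. Clec4e had 22121 UMIs in 2934 immature and 41305 UMIs in 6786 mature neutrophil-like cells. The ranges of Clec12a did not overlap (91.5 to 140 against 171 to 225 CPM), but its level was only 1.61-fold lower in mature cells. Clec4n was 3.35-fold higher in mature cells and higher in 6 of 6 libraries, but its ranges of 34.0 to 203 and 9.11 to 121 CPM overlapped. Cd209a, Mgl2 and Mrc1 stayed at or under 6.12 CPM in both classes. No call changed when any single library was left out. When single cells were instead kept by a gate on marker genes, Clec4e was 1.73-fold higher in mature cells with overlapping ranges and was no longer called.

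Mature neutrophil-like cells fell into 3 clusters, and Clec4n differed most among them. A cluster of 2488 cells was led by Retnlg, Mmp8 and Mmp9, which encode a secreted resistin-like protein and 2 matrix proteases stored in granules. A cluster of 2813 cells was led by Gm5483 and Stfa2l1, and a cluster of 1485 cells by Csf1, a macrophage growth factor, Irg1, the enzyme that makes itaconate, and Hcar2. Clec4n was at 2.13 CPM (libraries 1.19 to 5.88), 26.0 CPM (22.1 to 54.9) and 301 CPM (215 to 611) in these clusters in turn. The 3 ranges do not overlap. Clec4d stood at 749 CPM (676 to 937), 2052 CPM (1876 to 2353) and 2296 CPM (2084 to 2650), and Clec4e at 790 CPM (707 to 1071), 1073 CPM (925 to 1383) and 1514 CPM (1186 to 1948). The last 2 clusters overlapped in both genes. The first cluster lay below both others in Clec4d, but in Clec4e it lay clear of the third cluster only. UMIs of 10 neutrophil granule and surface genes made up 71471, 28023 and 13662 CPM in the same order. Csf1, Irg1 and Hcar2 helped define the third cluster, whereas no lectin gene took part in the clustering.

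**Figure D3:**
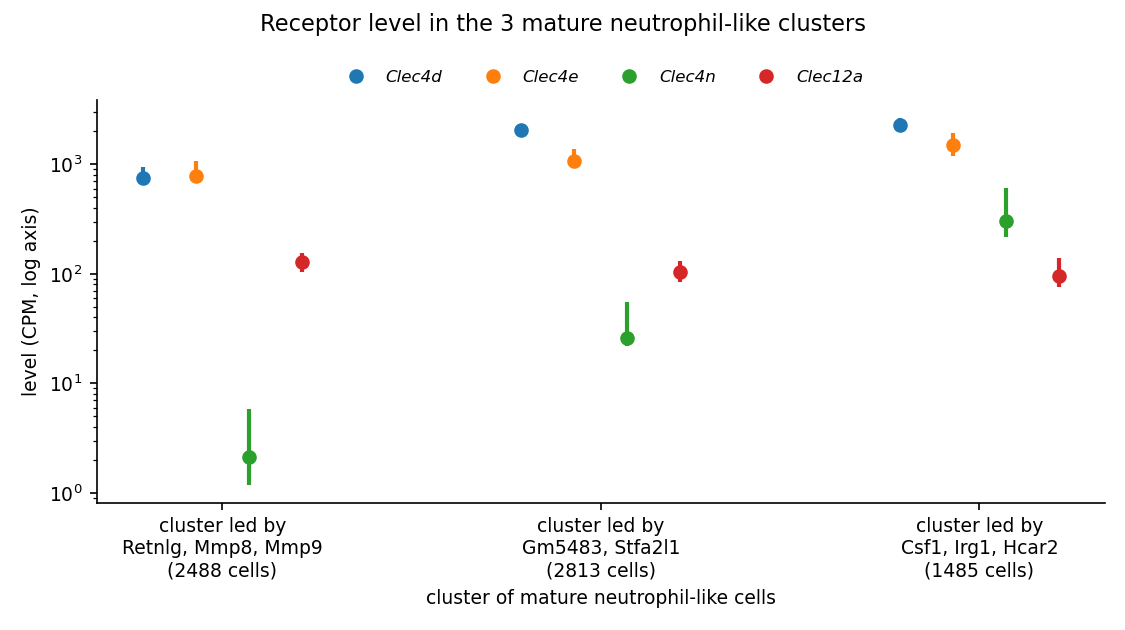
Pooled level (points, CPM on a log axis) and range of the 6 libraries (bars) of 4 receptor genes in the 3 mature neutrophil-like clusters, named by their leading genes. Clec4n spans 2.13 to 301 CPM across the clusters, while Clec12a stays between 95.1 and 128 CPM.

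Clec12a was highest in promyelocyte-like cells at 506 CPM (interval 499 to 514), with libraries from 485 through 528 to 668 CPM and a UMI in 98.6% of cells. This range lay above that of every other class. It was followed by neutrophil precursor-like cells at 232 CPM, plasmacytoid dendritic-like cells at 222 CPM (185 to 279), Arg1 inflammatory macrophage-like cells at 212 CPM and Cxcl9 inflammatory macrophage-like cells at 212 CPM, whose ranges overlapped from each to the next. Clec12a stood at 184 CPM in classical monocyte-like, 145 CPM in Lyve1 resident macrophage-like and 124 CPM in type 1 dendritic-like cells, and at 23.2 CPM in B cells, where 7.35% of cells held a UMI.

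Clec4n, which encodes the receptor Dectin-2 for fungal mannans, was highest in Cxcl9 inflammatory macrophage-like cells at 235 CPM (interval 231 to 240), with libraries at 112, a median of 238 and 304 CPM. Arg1 inflammatory macrophage-like cells stood at 179 CPM (67.2 to 259) and type 2 dendritic-like cells at 178 CPM (77.9 to 304), so the ranges of the 3 classes overlapped. Within each library, however, Clec4n was higher in the Cxcl9 class than in the Arg1 class in 6 of 6. This order was not seen among cells with few UMIs of 10 neutrophil genes (listed below), pooled over libraries. In cells with none, Clec4n was at 260 CPM in the Arg1 class (interval 204 to 327, 18 cells). That interval covers the 252 CPM of the Cxcl9 class, so no order is shown there. In cells with 1 to 9, Clec4n was higher in the Arg1 class, at 365 CPM (343 to 388, 161 cells) against 204 CPM. The 2 classes are not sharply apart: the 10 leading genes of the Cxcl9 class include Arg1 and Spp1, which are markers of the Arg1 class. At a coarser clustering (Leiden resolution 0.5), a cluster of 4440 cells had both Arg1 and Cxcl9 among its leading genes. Lyve1 resident macrophage-like cells held 62.5 CPM of Clec4n and classical monocyte-like cells 53.4 CPM. The libraries differed more in this gene than in Clec12a: over all cells of a library Clec4n ran from 32.7 to 175 CPM, a 5.37-fold span, against a 1.30-fold span for Clec12a. The mix of classes differed too, with 94 to 688 Lyve1 resident macrophage-like and 244 to 2527 mature neutrophil-like cells per library. Within the Cxcl9 class Clec4n ran from 112 to 304 CPM and Clec12a from 163 to 243 CPM. The part of the class mix in the spans over all cells was not tested.

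Mrc1 encodes the mannose receptor. In Lyve1 resident macrophage-like cells its level was 1243 CPM (interval 1231 to 1254), with libraries from 787 through 1126 to 1630 CPM and a UMI in 93.0% of cells. The range lay above that of Cxcl9 inflammatory macrophage-like cells at 451 CPM (210 to 712) and of Arg1 inflammatory macrophage-like cells at 407 CPM (230.0 to 687). Type 2 dendritic-like cells followed at 145 CPM (48.0 to 270), and classical monocyte-like cells held 13.8 CPM (7.31 to 19.6). B cells stood at 11.1 CPM with a UMI in 1.62% of cells, and T cells at 34.4 CPM with a UMI in 3.60%, against a median depth of 12639 UMIs in the resident cells and 9236 in T cells.

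Mrc1 lies on chromosome 2 of GRCm38 from 14229414 to 14332023, and Mgl2 on chromosome 11 from 70130125 to 70137542, both on the forward strand. The 250 bases before their RefSeq starts (chr2:14229164-14229413 and chr11:70130107-70130356) are shown beside the pair above as members more than 2-fold higher in resident than in Arg1 macrophages, with the same letters in capitals. The start used for Mgl2 in the promoter table lies inside the gene span given here, so that its window overlaps the annotated gene.
Mrc1: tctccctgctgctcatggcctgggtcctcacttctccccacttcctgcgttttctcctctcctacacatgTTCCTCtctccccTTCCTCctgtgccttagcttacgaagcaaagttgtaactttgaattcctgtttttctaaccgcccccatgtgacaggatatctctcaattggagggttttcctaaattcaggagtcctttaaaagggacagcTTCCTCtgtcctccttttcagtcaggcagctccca
Mgl2: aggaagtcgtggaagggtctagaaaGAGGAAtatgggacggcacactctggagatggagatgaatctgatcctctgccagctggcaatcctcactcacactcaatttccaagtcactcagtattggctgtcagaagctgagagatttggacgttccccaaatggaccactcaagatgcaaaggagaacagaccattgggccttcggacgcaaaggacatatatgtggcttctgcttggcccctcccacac
Mrc1 held 3 matches to GAGGAA or its complement, at 180, 167 and 35 bases before the start, and Mgl2 held 1, at 225 bases. Of the 6 members with an entry, 5 held a match and Cd209a held none, against 23.3% of all windows. The C/EBP-type letters were found for 6 of 6, against 36.8% of all windows.

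Between Lyve1 resident and Arg1 inflammatory macrophage-like cells, 2 of 7 members were called, against 10.2% of 18882 genes and 14.8% of those above 5 CPM. The count rested on the clustering: it was 1 (Mrc1) at a coarser clustering (Leiden resolution 0.5), 0 at a finer one (resolution 2.0) and 4 with the gate on single cells. Mrc1 was 3.05-fold higher in the resident class, and 8.62% of genes were called in that direction. Clec4e was 2.29-fold higher in the Arg1 class (511 against 223 CPM), and 1.56% of genes were called in that direction. Its ranges were almost in touch, since the highest resident library stood at 338.8 CPM and the lowest Arg1 library at 339.04 CPM. Clec4d was 1.89-fold and Clec4n 2.86-fold higher in the Arg1 class, and Mgl2 2.43-fold higher in the resident class, each in 6 of 6 libraries but with overlapping ranges. Clec12a was 1.46-fold higher in the Arg1 class, and its ranges did not overlap (129 to 168 against 172 to 255 CPM). Cd209a was 1.22-fold higher in the resident class and higher there in 4 of 6 libraries.

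UMIs of neutrophil genes moved with Clec4d and Clec4e in some of these classes. Over 10 such genes (Retnlg, Ly6g, Ngp, Camp, Ltf, Lcn2, Mmp8, Mmp9, Cxcr2 and Itgb2l), 1693 of 1872 Arg1 and 668 of 2433 Lyve1 macrophage-like cells held 10 or more UMIs. In the 1357 Lyve1 resident cells with none, Clec4d stood at 68.5 CPM (interval 64.7 to 72.6) and Clec4e at 67.5 CPM. In the 668 cells with 10 or more, they stood at 714 CPM (700.3 to 728) and 425 CPM. The same step was seen in B cells, where Clec4d went from 5.90 CPM in 3633 cells with none to 530.5 CPM in 258 cells with 10 or more. In the Arg1 class the level hardly differed: Clec4d was at 591 CPM (504 to 688) in the 18 cells with none, 634 CPM in 161 cells with 1 to 9 and 651 CPM in the remainder. Mrc1 in the Lyve1 class was 1302 CPM in cells with none and 1147 CPM in cells with 10 or more. Without the cells that held 10 or more, a choice made after seeing the data that left 179 Arg1 cells, Clec4d was 6.24-fold, Clec4e 5.81-fold and Clec4n 7.33-fold higher in the Arg1 than in the Lyve1 class with no overlap, and Mrc1 was 2.22-fold higher in the Lyve1 class with overlapping ranges, so that it was no longer called. The part of these neutrophil UMIs in the pooled levels was not tested.

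**Figure D4:**
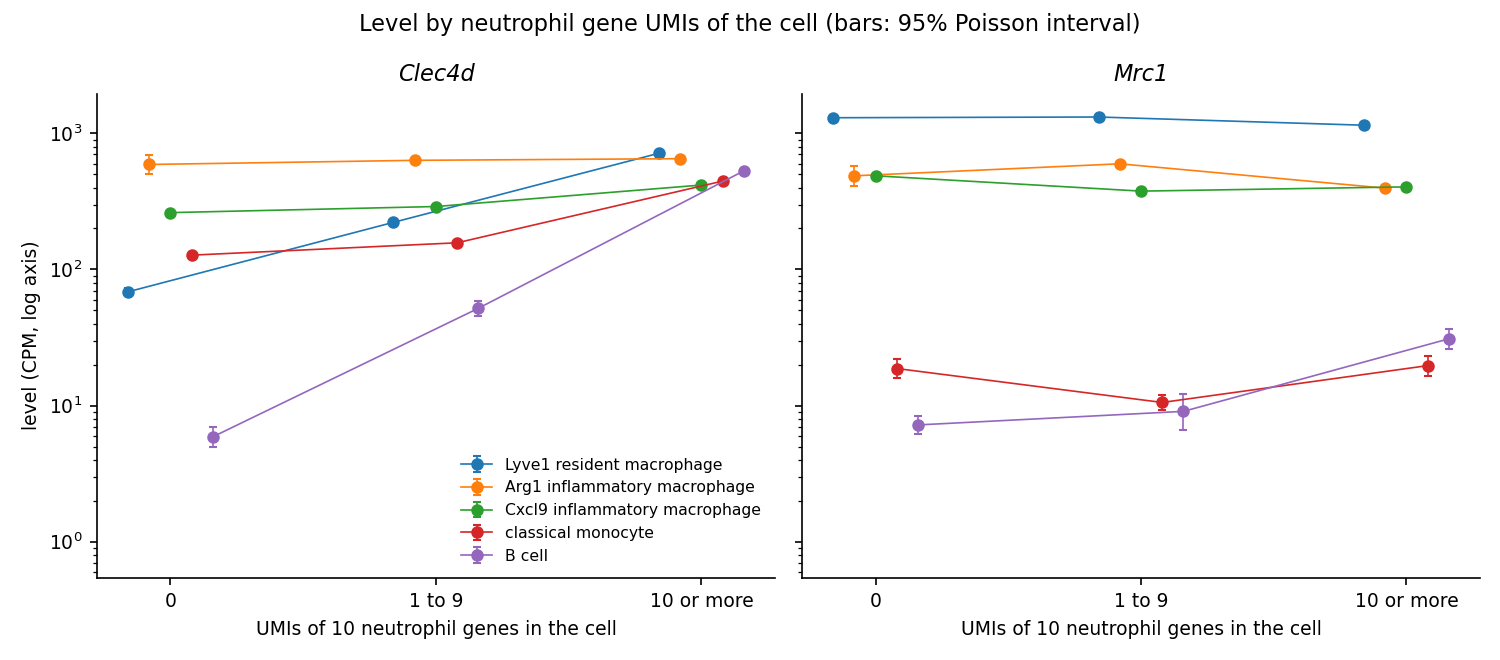
Level of Clec4d (left) and Mrc1 (right) in CPM on a log axis, in cells of 5 classes grouped by their UMIs of 10 neutrophil genes, with exact Poisson 95% intervals as bars. Clec4d spans 5.90 to 530.5 CPM in B cells and 68.5 to 714 CPM in Lyve1 resident macrophage-like cells, but 591 to 651 CPM in Arg1 inflammatory macrophage-like cells; Mrc1 in Lyve1 resident cells spans 1147 to 1318 CPM.

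Cd209a was found in 4.17% of all cells, the lowest share of the 7 members. It stood at 640 CPM in type 2 dendritic-like cells (interval 623 to 657), with libraries from 333 through 630.0 to 944 CPM and a UMI in 72.2% of cells. The highest library of any other class was 111 CPM. Plasmacytoid dendritic-like cells came second at 60.7 CPM (36.4 to 111), and 27.2% of them held a UMI, against 0.190% of B cells. No UMI was found in nonclassical monocyte, migratory dendritic, NK, basophil, type 2 innate lymphoid or fibroblast-like cells. For the nonclassical monocyte-like class a count of 0 allows up to 1.25 CPM when set at 3 UMIs, and the upper end of the exact Poisson interval was 1.53 CPM.

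Mgl2 was highest in the same class, at 276 CPM (interval 265 to 287), but only 29.4% of type 2 dendritic-like cells held a UMI and the libraries spread from 77.2 through 189 to 570.2 CPM. Lyve1 resident macrophage-like cells followed at 91.9 CPM (43.5 to 121), with a UMI in 30.9% of cells, and the ranges overlapped. Cxcl9 inflammatory macrophage-like cells held 50.04 CPM (14.1 to 114). B cells stood at 0.505 CPM and classical monocyte-like cells at 1.47 CPM.

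A group of 177 cells led by Ccl17, Tnip3 and Tmtc2 went without a name, since it did not meet the whole naming rule for any class. Its level of Mgl2 was 979 CPM (interval 944 to 1015, libraries 153 to 1190), with a UMI in 86.4% of cells, and Cd209a stood at 493 CPM and Mrc1 at 476 CPM. Its 10 neutrophil genes summed to 11.4 CPM. A second unnamed group of 160 cells with the same 3 leading genes held 605 CPM of Mgl2 and 476 CPM of Cd209a, and 13214 CPM of the neutrophil genes. Together these 2 groups held more Mgl2 than the whole type 2 dendritic-like class: 15.7% and 14.3% of all its UMIs against 12.3% of them.

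Between type 2 dendritic-like and classical monocyte-like cells, 6 of 7 members were called, against 8.45% of 18102 genes and 1320 of the 9435 genes above 5 CPM. Of these, 3 were higher in the dendritic class (3.96% of genes were called in that direction) and 3 in the monocytes (4.49%). Mgl2 was 188-fold higher in the dendritic class (libraries 77.2 to 570.2 against 0.812 to 2.25 CPM), Cd209a 120-fold (333 to 944 against 1.17 to 13.9 CPM) and Mrc1 10.5-fold. Clec4d was 12.7-fold higher in the monocytes (161 to 267 against 10.7 to 20.5 CPM), Clec4e 11.0-fold and Clec12a 2.66-fold. Clec4n was 3.34-fold higher in the dendritic class, in 6 of 6 libraries, with overlapping ranges of 77.9 to 304 and 44.5 to 93.6 CPM; without library 2, or without library 3, the ranges were apart and 7 of 7 members were called. Clec4d and Clec4e were likewise low in type 1 dendritic-like cells, at 1.55 and 3.10 CPM, and in migratory dendritic-like cells, at 7.80 and 7.20 CPM.

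**Figure D5:**
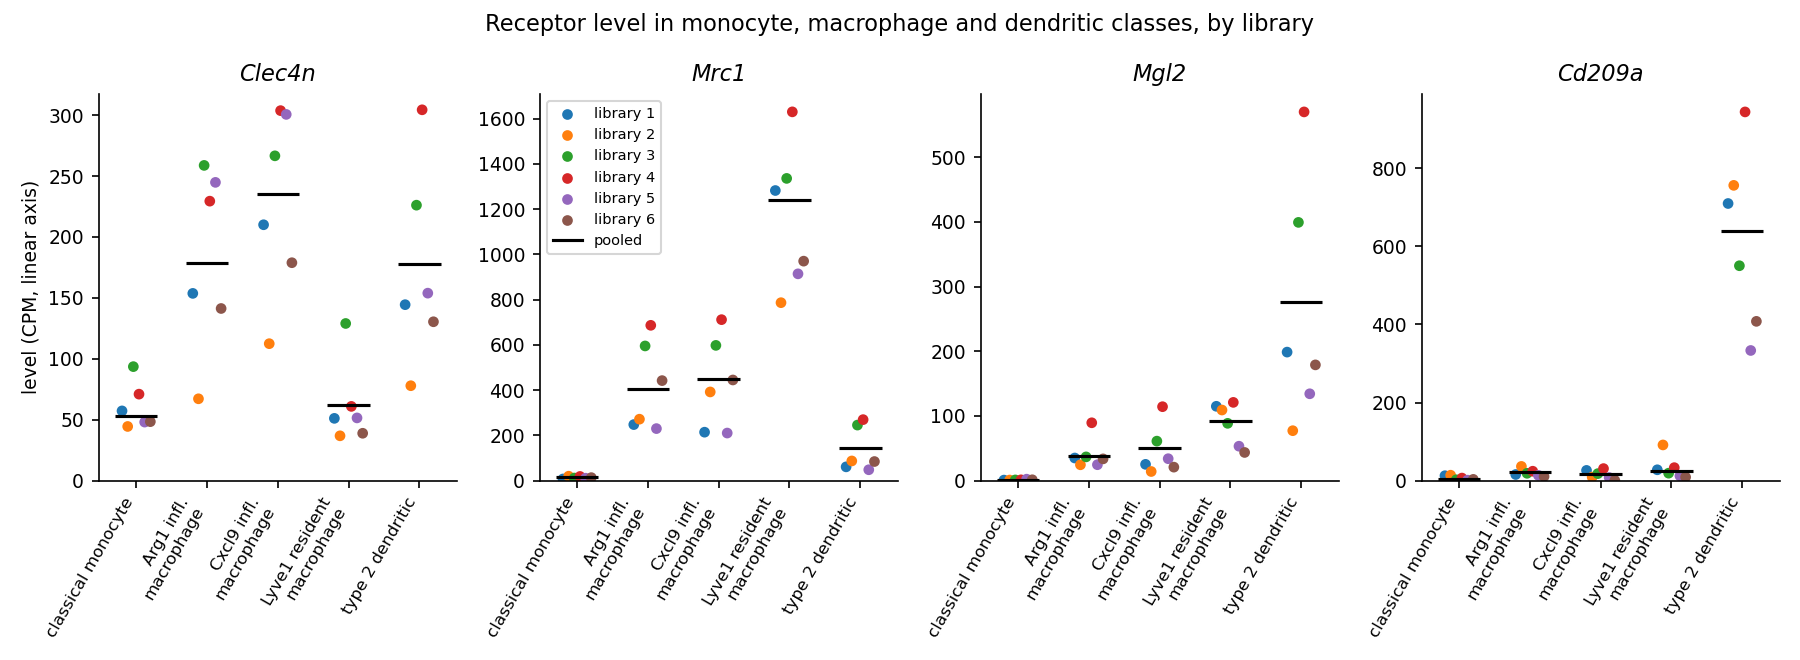
Level of 4 receptor genes (CPM, linear axis from 0) in 5 monocyte, macrophage and dendritic classes, with 1 point per library and a bar for the pooled level. Mrc1 is highest in Lyve1 resident macrophage-like cells (787 to 1630 CPM) and Cd209a in type 2 dendritic-like cells (333 to 944 CPM), while the Clec4n points of the Arg1, Cxcl9 and type 2 dendritic classes overlap.

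Detection in the same cell was compared after thinning to 3000 UMIs. In Lyve1 resident macrophage-like cells, 52.2% of cells with Clec4d also had Clec4e, against 13.7% of cells without it, higher in 6 of 6 libraries. Both genes moved with the neutrophil UMIs in this class: before thinning, 30.1% of cells with none of these UMIs held Clec4d and 21.0% Clec4e, against 95.8% and 92.5% of cells with 10 or more. Their part in the shared detection was not tested. In Cxcl9 inflammatory macrophage-like cells the shares were 53.4% and 35.7%, in classical monocyte-like cells 60.5% and 38.5%, and in immature neutrophil-like cells 77.2% and 53.8%, each in 6 of 6 libraries. In mature neutrophil-like cells, where most cells had both, they were 85.4% and 81.2%, higher in 5 of 6 libraries. Mgl2 and Mrc1 behaved likewise in the resident class, where 94.3% of the 383 cells with Mgl2 had Mrc1 against 79.9% of the others. In type 2 dendritic-like cells 22.7% of cells with Cd209a had Mgl2, and 19.0% of those without, with Wilson intervals of 18.0 to 28.3% and 14.1 to 25.2% that overlap.

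Genes with a like pattern were sought among 7313 genes that reached 50 CPM, by Pearson's correlation of log2(CPM + 1) over the 22 classes, which share libraries and so are not independent. Clec4d was followed by Trem1 and Csf3r (r = 0.95 for both), an amplifying myeloid receptor and the G-CSF receptor, and by Hacd4 (0.93). Clec4e was followed by Csf3r, Cebpb, a transcription factor of myeloid cells, and Hacd4 (0.96 for each). Trem1 and Csf3r are among the markers that named the mature neutrophil class. Mrc1 was followed by the endocytic adaptor Dab2 and the complement genes C1qb (both 0.93) and C1qc (0.92), and Cd209a by its relative Cd209d (0.86), H2-DMb1 (0.78) and Gpr146 (0.76). Mgl2 was followed by Clec4b1 (0.79), Dab2 and Aph1a (both 0.76), Clec4n by Gpr35, AF251705 (both 0.90) and Ifi204 (0.88), and Clec12a by Gpx1 (0.88), Znhit1 (0.85) and Arpc1b (0.83). Among the members themselves, Clec4d and Clec4e had r = 0.98 and Cd209a and Mgl2 0.80.

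Of 15 adaptor and Syk-Card9 pathway genes, 9 exceeded 100 CPM in mature neutrophil-like cells, among them Tyrobp (3538 CPM), Lyn (1710 CPM), Fcer1g (1458 CPM) and Syk (473 CPM). In B cells Tyrobp stood at 339 CPM, Lyn at 1494 CPM, Fcer1g at 201 CPM and Syk, highest there, at 983 CPM. In Cxcl9 inflammatory macrophage-like cells 11 did, with Fcer1g at 2030 CPM and Malt1 at 523 CPM, in Lyve1 resident macrophage-like cells 11, with Fcer1g at 1459 CPM, in type 2 dendritic-like cells 10, with Malt1 at 887 CPM, and in promyelocyte-like cells 6. Card9 reached no more than 27.8 CPM in any class. From immature to mature neutrophil-like cells, 2 of the 15 were called higher (Syk and Lyn) and none lower. Of all genes 4.38% were called higher, and of genes above 5 CPM 24.8% were called in either direction. The median log2 ratio was 0.31 over the list and 0.01 over all genes. Between the macrophage classes only Malt1 was called, higher in the Arg1 class, against 1.56% of all genes called in that direction. Malt1, Nfkb1 and Rel were called higher in type 2 dendritic-like than in classical monocyte-like cells, against 3.96% of all genes. Among genes above 5 CPM, 14.8% were called in either direction between the macrophage classes. Between type 2 dendritic-like and classical monocyte-like cells this share was 14%.

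Of the 3 inhibitory phosphatase genes on the list, which act below receptors such as Clec12a, Inpp5d and Ptpn6 exceeded 100 CPM in each of the 5 classes where a member was highest. They were not particular to these classes, since B cells held 816 CPM of Inpp5d and 199 CPM of Ptpn6. Inpp5d was called higher in mature than in immature neutrophil-like cells, and no other call was made. Of 13 transcripts known to be raised by signals through these receptors, Il1b, Cxcl2, Ptgs2 and Nlrp3 were called higher in mature than in immature neutrophil-like cells, where Il1b reached 5226 CPM and Cxcl2 2608 CPM, and none was called lower (median log2 ratio 1.82). Of all genes 4.38% were called higher in mature cells, and of genes above 5 CPM 24.8% were called in either direction. Tnf was called higher in Lyve1 resident macrophage-like cells (8.62% of all genes were called in that direction) and Il1b in the Arg1 class (1.56%). Il1b was called higher in type 2 dendritic-like (2462 CPM) than in classical monocyte-like cells (1208 CPM), and 3.96% of all genes were called in that direction. Csf3 was called lower, against 4.49% of all genes. Its levels were near the floor, with no UMI in the dendritic class and 1.30 CPM in the monocytes, so the call rests on the 3 UMIs set for a class at 0.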

How the data were processed

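The authors aligned reads to mm10 with Cell Ranger, removed ambient RNA with SoupX and doublets with DoubletFinder, filtered cells in Seurat and deposited 1 pooled matrix of UMI counts per gene and cell; the unit is whole counts, not normalised. Entries stored as 0 were read as 0. Members and gene lists were chosen with earlier results of these data known. No further doublets or cells were removed.

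Cells were clustered with scanpy 1.11.5 (2000 variable genes, 30 principal components, 15 neighbours, Leiden resolution 1.0) without 50 lectin genes. Clusters that mixed dendritic, nonclassical monocyte, progenitor or erythroid markers were clustered again at resolution 0.5, chosen after the data were seen. A cluster of at least 50 cells was named when more than 50% of a class's markers, and at least 3, were found in at least 25% of its cells and 1 marker was among its 10 or 2 among its 30 leading genes by fold, also a choice made after the data were seen.

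UMIs were summed per class and library. A gene was called at 2-fold with library ranges apart, a class at 0 being set to 3 UMIs. The rule was tested on simulated data that held counting error only and changes larger than 2-fold. It was not tested at the spread between libraries seen here. Named genes were all members, the 3 genes most alike to each, and listed genes above 100 CPM in a member's highest class. Some listed genes were named outside this rule, among them Card9, Csf3, Clec9a, Ly75, Clec5a, Cd209b, Cd209f and Cd209g. Depth per library was 47273569 to 123367661 UMIs. Alternatives covered the resolution, a gate on single cells, means over cells, the median library, each library left out, thinning to 3000 UMIs, and a filter of 5 CPM. Positions and sequences are from RefSeq on GRCm38.p6, where 6 of the 7 measured members had an upstream sequence.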

Additional observations from a re-analysis of the deposited data

How the results depend on the processing

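All 7 measured members stayed highest in a myeloid class in each alternative run, a count that their choice as receptors of myeloid cells makes likely. The number called between mature and immature neutrophil-like cells was 2 in the main analysis and 4 at Leiden resolution 2.0, where Cd209a (0.271 against 9.75 CPM) and Mgl2 (0.591 against 10.2 CPM) were added as lower in mature cells; there the immature class held a cluster of 925 cells led by Adgre4, Pparg and Ace, which also led nonclassical monocyte-like clusters. With the gate on single cells it was 3 (Clec4d, Mgl2 and Mrc1): Clec4e was 1.73-fold apart with overlapping ranges, and Mgl2 (60.04 against 11.7 CPM) and Mrc1 were higher in mature cells. Between Lyve1 and Arg1 macrophage-like cells it was 2, against 1 at resolution 0.5 (Mrc1), 0 at resolution 2.0, where Clec4e and Mrc1 were 1.76-fold and 2.21-fold apart with overlapping ranges, and 4 with the gate (Clec4d and Clec4n joined); Mrc1 lost its call without cells holding 10 or more neutrophil UMIs. Between type 2 dendritic-like and classical monocyte-like cells Mrc1 lost its call with the gate, at 1.67-fold. Leaving out each library gave 7 of 7 members highest in a myeloid class, 2 called between the neutrophil classes, 2 to 3 between the macrophage classes (Clec4n joined without library 2 or 3, Mgl2 without library 4) and 6 to 7 between type 2 dendritic-like and classical monocyte-like cells. The cause of these changes was not tested. The highest class of a member was kept in 88 of 91 comparisons. Clec4n was highest in Arg1 cells without cells holding 10 or more neutrophil UMIs. At resolution 0.5 Clec4n and Mgl2 were highest in the class named migratory dendritic, and Mgl2 in the type 2 dendritic class was 103 CPM. That migratory class took in a cluster of 187 cells led by Ccl17, Klrd1 and Klrb1b. The same genes were among those leading a type 2 dendritic-like cluster of 253 cells in the main analysis. There the migratory dendritic-like class of 101 cells held 24.0 CPM of Clec4n and 3.60 CPM of Mgl2. With the gate Clec4n in its highest class was 464 CPM. No paired analysis was possible because the library numbers in the barcodes could not be tied to the replicate numbers of the labels and no test was run. Counts of few UMIs in classes of under 200 cells limit every level there.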

Other observations

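Of 35 other C-type lectin genes on the list, 17 reached more than 60 CPM in at least 1 named class, and they marked different cells. Clec9a, a receptor for the actin of dead cells, was highest in type 1 dendritic-like cells at 267 CPM (libraries 191 to 356), followed by plasmacytoid dendritic-like cells at 64.7 CPM. Ly75, which encodes the endocytic receptor DEC-205, was highest in migratory dendritic-like cells at 574 CPM (331 to 1017). Clec10a, the close relative of Mgl2, was highest in mast cell-like cells at 413 CPM (262 to 474), followed by type 2 dendritic-like cells at 330.3 CPM. Mgl2 in the mast cell-like class stood at 0.873 CPM, from 1 UMI.

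Clec4a1, Clec4a2 and Clec4a3 encode relatives of the dendritic cell immunoreceptor. Clec4a1 and Clec4a3 were highest in nonclassical monocyte-like cells at 215 CPM (191 to 450) and 326 CPM (213 to 599), and Clec4a2 in neutrophil precursor-like cells at 286 CPM (265 to 311). Clec5a, which signals through an activating adaptor, was at 92.2 CPM in neutrophil precursor-like and 91.4 CPM in Lyve1 resident macrophage-like cells. Cd209f, Cd209g and Cd209b, relatives of Cd209a, were highest in Lyve1 resident macrophage-like cells at 43.5, 21.8 and 13.9 CPM, whereas Cd209d was highest in type 2 dendritic-like cells at 131 CPM. Between type 2 dendritic-like and classical monocyte-like cells, 13 of the 31 lectin genes on the list with a UMI were called. Of these, 8 were higher and 5 lower in the dendritic class. Called genes made up 8.45% of all genes and 14% of those above 5 CPM.

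Over all cells of a library, the 6 libraries differed little in Clec4d (283 to 386 CPM) and Clec12a (150 to 194 CPM), and more in the receptors of macrophages and dendritic cells. Mrc1 stood at 296, 89.7, 462, 436, 90.3 and 85.3 CPM in libraries 1 to 6, Mgl2 at 59.9, 14.4, 61.1, 95.7, 24.1 and 19.1 CPM, and Clec4n at 95.2, 32.7, 175, 101, 48.2 and 34.1 CPM. Libraries 1, 3 and 4 were above libraries 2, 5 and 6 in each of these genes. Levels over all cells also depend on the mix of classes in a library, whose part was not tested. Within classes the separation was not general. Mrc1 kept it in Lyve1 resident macrophage-like cells (1283, 1336 and 1630 CPM against 787, 914 and 970 CPM) but not in Cxcl9 or Arg1 inflammatory macrophage-like cells, where library 1 (214 and 248 CPM) lay below library 6 (445 and 442 CPM). In the Lyve1 class Mgl2 was lower in library 3 than in library 2 (88.6 and 109 CPM), and Clec4n was at 51.1 CPM in library 1 and 51.5 CPM in library 5. The samples were 2 with PBS and 4 with PEPITEM. Whether the separation has to do with treatment could not be tested, since the library numbers are not tied to samples.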
